A study of Mus musculus with 6 samples.

Results

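The genes described here are 49 genes of kinetochore assembly, the spindle checkpoint and mitotic regulation, out of 21929 genes in the deposited expression table. They were chosen by symbol, from their known roles, and each symbol matched exactly 1 row. They were sorted by function into centromere proteins (6 genes), the outer kinetochore (8), the spindle checkpoint (5), mitotic kinases with their partners (8), mitotic cyclins with CDK1 and its activators (7), the cyclosome and its substrates (5), condensin I with 2 chromosome proteins (7) and cytokinesis (3). The libraries come from L929, an established mouse fibroblast line kept in medium for proliferating cells. All 6 libraries are labelled as co-culture and carry the same batch label. In 3 libraries the L929 cells are labelled as tumour uninteracted (Biotin-), and in the other 3 as MFCSTCL interacted (Biotin+). The labels give no genotype, time point or dose, do not expand MFCSTCL and do not say how biotin marked the cells. The labels do not tell whether the libraries of a group are separate cultures; p-values therefore measure no more than the spread between these 6 libraries, and that spread may be technical.

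Mitosis is driven by CDK1 bound to its cyclins, with the Polo and Aurora kinases acting beside it. The kinetochore is a protein assembly that is built on centromeric chromatin and grips the spindle microtubules. As long as kinetochores are unattached, the spindle checkpoint holds back the cyclosome (APC/C), a ubiquitin ligase whose activity lets sister chromatids separate and cyclins be destroyed. Many of these genes are transcribed together late in the cell cycle. Several promoter elements are known for this, among them CCAAT boxes, bound by NF-Y, and the cell cycle genes homology region (CHR), bound by MuvB complexes. MuvB works as part of the DREAM repressor in resting cells and together with B-MYB and FOXM1 as an activator in dividing cells.

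The promoters are shown first because motif letters were no rule in the choice of genes. Such elements are known for genes with these roles, as said above. The shares below are therefore a description and no independent support, and other cell cycle genes were not compared. RefSeq promoter windows of 300 bases (250 before to 50 after the annotated start, on GRCm38.p6) were matched by symbol for 41 of the 49 genes. The letters TTTGAA (the canonical CHR) and CCAAT were searched on both strands. The motifs can share a base, and 1 of 37 CHR matches overlapped a CCAAT match. These 37 are counted per window, so a site in overlapping windows of Bub3, Prc1 or Ect2 counts more than once. The CHR letters were in a window of 26 of the 41 genes (63.4%), against 20.2% of 27025 genes with a window and 14.4% of 8808 tested genes with one. CCAAT was in a window of 31 of the 41 (75.6%), against 41.1% of all genes and 43.8% of the tested ones. Both were found for 23 of the 41 (56.1%), against 7.97% of all genes and 6.11% of the tested ones. A further 8 genes had CCAAT alone, 3 had the CHR letters alone, and 7 had neither, among them Nuf2, Pttg1 and Birc5. A match is a description of these letters and no measurement of binding.

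The following stretches are the 120 bases before the start, 5′ to 3′ on the strand of the gene, from RefSeq on GRCm38.p6, with CCAAT and CHR letters of either strand in capitals. The first 6 are examples with both motifs before the start, and Ccnb1 is shown because it had the largest log2 difference of the 49 genes:
Cdk1: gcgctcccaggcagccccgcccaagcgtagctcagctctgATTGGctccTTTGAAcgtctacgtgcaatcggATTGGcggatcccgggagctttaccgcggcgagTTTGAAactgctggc
Ube2c: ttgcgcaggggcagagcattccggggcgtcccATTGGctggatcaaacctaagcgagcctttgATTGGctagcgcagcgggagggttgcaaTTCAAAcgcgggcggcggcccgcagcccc
Top2a: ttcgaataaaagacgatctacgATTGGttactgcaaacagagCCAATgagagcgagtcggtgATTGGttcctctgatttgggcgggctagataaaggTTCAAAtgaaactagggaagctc
Prc1: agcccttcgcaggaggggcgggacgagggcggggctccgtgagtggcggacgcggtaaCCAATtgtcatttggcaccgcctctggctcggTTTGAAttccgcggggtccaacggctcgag
Espl1: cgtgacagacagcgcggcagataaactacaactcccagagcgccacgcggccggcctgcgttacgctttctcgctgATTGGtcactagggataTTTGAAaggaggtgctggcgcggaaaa
Cdc20: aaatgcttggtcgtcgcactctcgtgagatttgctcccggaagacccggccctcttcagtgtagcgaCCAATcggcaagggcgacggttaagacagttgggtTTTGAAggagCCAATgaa
Ccnb1: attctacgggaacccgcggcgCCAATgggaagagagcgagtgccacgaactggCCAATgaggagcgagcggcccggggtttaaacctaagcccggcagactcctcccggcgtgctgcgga
The stretches lie at chr10:69352913-69353032 (Cdk1, minus strand), chr2:164769809-164769928 (Ube2c, plus), chr11:99024190-99024309 (Top2a, minus), chr7:80294356-80294475 (1 of the windows of Prc1, plus), chr15:102296173-102296292 (Espl1, plus), chr4:118437344-118437463 (Cdc20, minus) and chr13:100786487-100786606 (Ccnb1, minus). In Cdk1 the CHR letters nearest the start begin 15 bases before it. The closest CCAAT box upstream of them begins 48 bases before the start, 33 bases apart. A further CHR match of Cdk1 lies upstream of both, at -71 bases from the start. From the CHR letters to the closest upstream CCAAT box the distance was 28 bases in Ube2c, 35 in Top2a, 32 in Prc1, 17 in Espl1 and 35 in Cdc20, which has a further CCAAT match between its CHR letters and the start. The 2 CCAAT boxes nearest the start were 32 bases apart in Cdk1, 31 in Ube2c, 32 in Ccnb1, 20 in Top2a and 45 in Cdc20. Ccnb1 had no TTTGAA in its window.

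**Figure D1:**
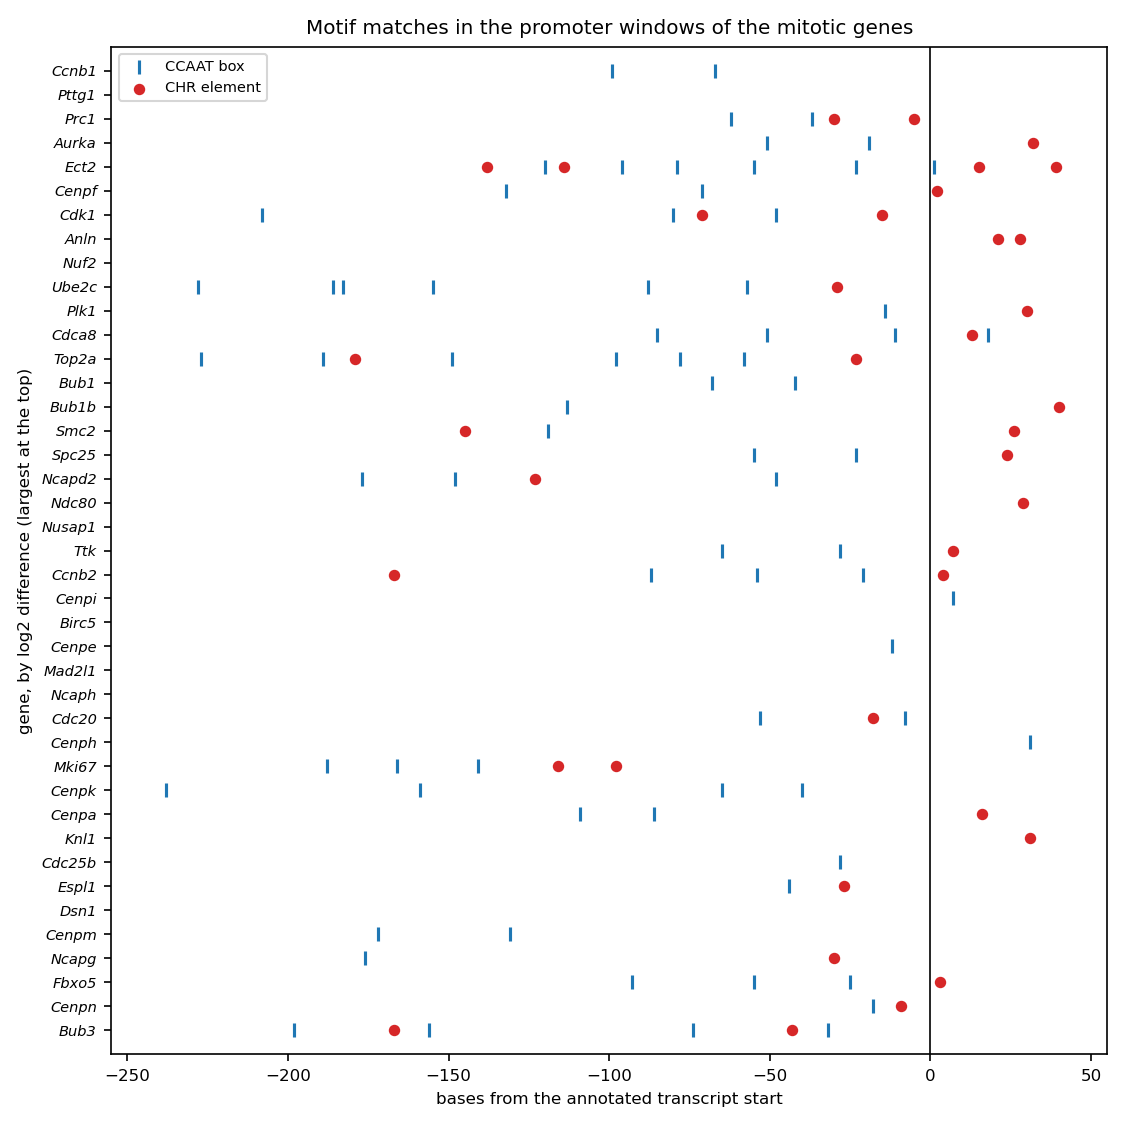
Matches of CCAAT (blue ticks) and of the CHR letters TTTGAA (red points) on either strand in the promoter windows of the 41 genes with one, by distance in bases from the annotated start (0). Genes are ordered by log2 difference between the groups, the largest at the top; 4 genes have more than 1 window and all their matches are drawn. Of 37 CHR matches, counted per window, 27 lie within 50 bases of the start annotated for that window. A site in overlapping windows of Bub3, Prc1 or Ect2 is drawn and counted more than once. Genes with and without matches occur along the whole order.

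The size of the change was compared between genes with and without the CHR letters as a description. The median log2 difference was 1.17 for the 26 genes with them (0.43 to 1.71) and 1.08 for the 15 without (0.63 to 1.86), and these ranges overlap almost wholly.

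The whole table gives the following frame. Summed over all genes, each library held 337771 to 356681 FPKM, with 10724 to 10862 genes at 1 FPKM or more in each. FPKM holds no read totals, and the depth behind a value is unknown. Of 12 fibroblast markers 7 were tested; Vim rose and the other 6, Col1a1 among them, fell, and the list summed to 3365 to 3607 FPKM in the Biotin-negative and 1915 to 2000 FPKM in the Biotin-positive libraries, while Dcn, Lum, Thy1, Fap and Postn stayed under 1 FPKM in all libraries. Of 18 epithelial markers 16 stayed under 1 FPKM in all libraries; Epcam was at most 0.0231 FPKM, Cdh1 at most 0.0227, and Krt5 and Krt20 were listed at 0. The other 2, Krt7 and Krt8, were at 0.173 to 0.320 and 0.0204 to 0.0509 FPKM in the Biotin-negative libraries and at 24.0 to 26.1 and 20.4 to 21.1 FPKM in the Biotin-positive ones. The summed level of the epithelial list was 1.39 to 1.57 FPKM in the Biotin-negative and 46.0 to 48.2 FPKM in the Biotin-positive libraries, and without Krt7 and Krt8 it was 1.20 to 1.28 and 0.981 to 1.60 FPKM. All 8 gastric mucosa markers and all 4 endothelial markers stayed under 1 FPKM in all libraries, and of 8 leukocyte markers Lyz2 rose, Cd68 fell and 6 stayed under 1 FPKM, with Cd3e and Adgre1 listed at 0. The part of these markers in the results below was not tested.

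All 49 genes were higher in the Biotin-positive libraries. Each had at least 1 FPKM in all 6 libraries and was tested. At an adjusted p of 0.05 (limma on log2(FPKM + 1), Benjamini-Hochberg over 11029 tested genes), 49 rose, where 37.8% of all tested genes rose, and 0 fell, where 36.1% of all fell. A log2 difference of at least 1 was reached by 32 of them, against 5.29% of all tested genes. Every Biotin-positive library was above every Biotin-negative one for all 49, which was so for 39.1% of all tested genes. The adjusted p-values of the 49 in limma lay between 3.47e-09 and 0.000129. The median log2 difference was 1.11, beside 0.01 over all tested genes. As ratios of mean FPKM, 36 genes were at least 2-fold and 9 at least 3-fold higher. On the GRCm39 coordinates of the table, the genes at the ends of these ranges are Ccnb1 (ENSMUSG00000041431, chr13:100778650-100786570), with the largest log2 difference, Cenpf (ENSMUSG00000026605, chr1:189640606-189688086), with the largest ratio, and Bub3 (ENSMUSG00000066979, chr7:131560222-131571895), with the smallest of both. Prc1 (ENSMUSG00000038943, chr7:80294450-80316259) had the lowest adjusted p-value and Top2a (ENSMUSG00000020914, chr11:98992943-99024189) the highest level. A rise of mitotic genes was known from earlier results of these data when the 49 were chosen, so the count is no independent support for it.

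Together the 49 genes made up 0.255 to 0.264% of the FPKM sum of a Biotin-negative library and 0.578 to 0.597% of a Biotin-positive one. Their summed level was 898, 872 and 868 FPKM in Biotin-negative replicates 1 to 3 and 2128, 2059 and 2052 FPKM in the Biotin-positive ones, a ratio of means of 2.37. In bulk RNA a change in the share of cells that express a gene and a change in RNA per cell cannot be told apart, and this holds for every value below. Levels are FPKM, which is scaled by gene length, so they can be compared between genes; differences are on the log2(FPKM + 1) scale.

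**Figure D2:**
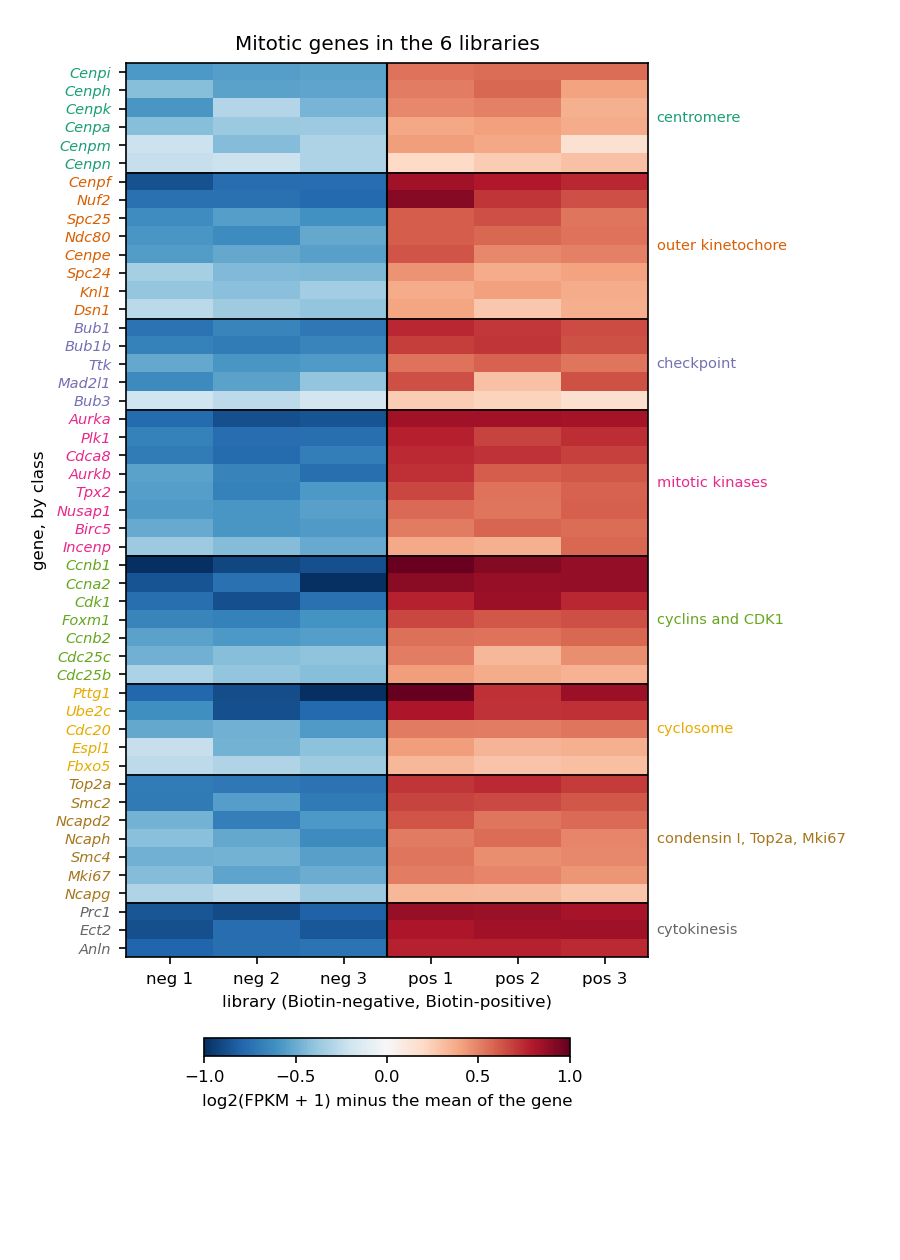
Level of each of the 49 genes in each library, as log2(FPKM + 1) minus the mean of that gene over the 6 libraries, in rows by class, for Biotin-negative (neg) and Biotin-positive (pos) replicates 1 to 3. All 49 rows are below their mean in the 3 Biotin-negative libraries and above it in the 3 Biotin-positive ones; the contrast is palest for Bub3 and Cenpn and deepest for Ccnb1 and Pttg1.

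Centromere proteins mark the site of the kinetochore. Their 6 genes had the lowest class median, a log2 difference of 0.83, with a range of 0.50 to 1.11; differences between classes were not tested. Cenpa, which encodes the histone H3 variant that defines the centromere, was the most abundant, at 44.1, 45.8 and 46.3 FPKM in the Biotin-negative and 78.4, 79.6 and 77.4 FPKM in the Biotin-positive libraries, a 1.73-fold ratio. The others belong to the constitutive centromere network that sits on the CENP-A nucleosome. Cenpi was measured at 5.79, 5.88 and 5.96 FPKM, then 13.7, 13.8 and 13.9 FPKM (log2 difference 1.11, SE 0.0434, limma adjusted p = 9.26e-08). Cenph stood at 12.9, 11.9 and 11.9 FPKM and at 25.6, 26.7 and 23.6 FPKM, a log2 difference of 0.99. The replicates of each group were close and the groups far apart for both. Cenpn, whose protein reads the CENP-A nucleosome directly, had the smallest difference of the class. It was at 18.02, 18.2 and 17.0 FPKM and at 24.6, 25.5 and 26.2 FPKM (log2 difference 0.50, limma adjusted p = 9.72e-06). Cenpk (10.3 to 19.8 FPKM by group means) and Cenpm (12.4 to 19.8) lay between, and Cenpm had the highest adjusted p-value of the 49 genes, 0.000129 in limma.

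The outer kinetochore makes the contact with microtubules. Its core is the NDC80 complex, built of a dimer of NDC80 and NUF2 and a dimer of SPC24 and SPC25. Ndc80 was at 11.5, 11.1 and 12.1 FPKM in the Biotin-negative and 27.6, 27.0 and 26.3 FPKM in the Biotin-positive libraries. Nuf2 was at 8.30, 8.30 and 8.07 FPKM and at 28.2, 24.6 and 23.3 FPKM, with the first Biotin-positive library the highest. Both genes of this dimer rose, with log2 differences of 1.15 (SE 0.0444) and 1.51 (SE 0.0668). Spc24 was at 16.8, 15.5 and 15.4 FPKM and at 29.5, 27.9 and 28.6 FPKM. Spc25 was at 17.1, 17.99 and 17.3 FPKM and at 41.3, 42.5 and 39.3 FPKM. Their log2 differences were 0.81 (SE 0.0451) and 1.19 (SE 0.0415), the larger in Nuf2 and in Spc25; the difference between partners was not tested. The ratio of Ndc80 to Nuf2 within a library, on the FPKM scale, was 1.41 ± 0.0849 (SD, n = 3) in the Biotin-negative and 1.07 ± 0.0794 in the Biotin-positive group, and that of Spc25 to Spc24 was 1.10 ± 0.0743 and 1.43 ± 0.0812. Neither pair of ratios overlapped between the groups. Such ratios were picked after the values were seen, and they are given without a test. A two-sided exact permutation test of 3 libraries against 3 cannot reach the 0.05 level.

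Cenpf, a large protein of the outer kinetochore corona, had the largest ratio of means of the 49 genes and the lowest starting level. It stood at 2.39, 2.64 and 2.65 FPKM in the Biotin-negative group, against 10.1, 9.77 and 9.43 FPKM in the Biotin-positive group, a 3.81-fold ratio (log2 difference 1.59, limma adjusted p = 5.71e-08). The log2(FPKM + 1) scale understates the change of such low genes. Cenpe, a kinesin motor of the corona, rose from 5.39 ± 0.107 to 12.5 ± 0.774 FPKM (SD, n = 3 libraries). Knl1, the scaffold that recruits the BUB proteins, rose from 3.93 to 7.37 FPKM by group means. Dsn1, a subunit of the MIS12 complex that links inner and outer kinetochore, had the smallest difference of the class, from 13.8, 12.9 and 12.6 FPKM to 22.4, 20.5 and 22.0 FPKM (log2 difference 0.68).

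All 5 spindle checkpoint genes rose, with log2 differences from 0.43 for Bub3 to 1.41 for Bub1. Bub1, a kinase that marks the inner centromere and scaffolds the checkpoint, was at 11.8, 12.5 and 12.0 FPKM and at 34.9, 33.9 and 32.5 FPKM (log2 difference 1.41, SE 0.0425). Bub1b, which encodes BUBR1, a subunit of the complex that inhibits the cyclosome, was at 9.82, 9.67 and 9.94 FPKM and at 26.9, 27.3 and 25.9 FPKM (log2 difference 1.36, SE 0.0398). Bub3, which brings both of them to the kinetochore, was at 36.8, 35.3 and 37.2 FPKM and at 50.7, 49.7 and 47.5 FPKM. Its difference of 0.43 (SE 0.0375, limma adjusted p = 1.13e-05) was the smallest of all 49, and its groups still did not overlap. The ratio of Bub1 to Bub3 within a library thus went from 0.332 ± 0.0192 to 0.685 ± 0.00359 (SD, n = 3). Mad2l1, the checkpoint protein that binds CDC20, was at 10.9, 11.8 and 13.1 FPKM and at 28.1, 21.7 and 27.9 FPKM. It had the largest SE of the 49 genes (0.101), with the second Biotin-positive library the lowest of that group. Ttk, the MPS1 kinase that starts the checkpoint, rose from 5.57 to 13.2 FPKM by group means. Cdc20, the target of the checkpoint, and Mad2l1 kept a ratio of 2.02 ± 0.229 and 1.97 ± 0.287 within a library, and these overlapped.

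**Figure D3:**
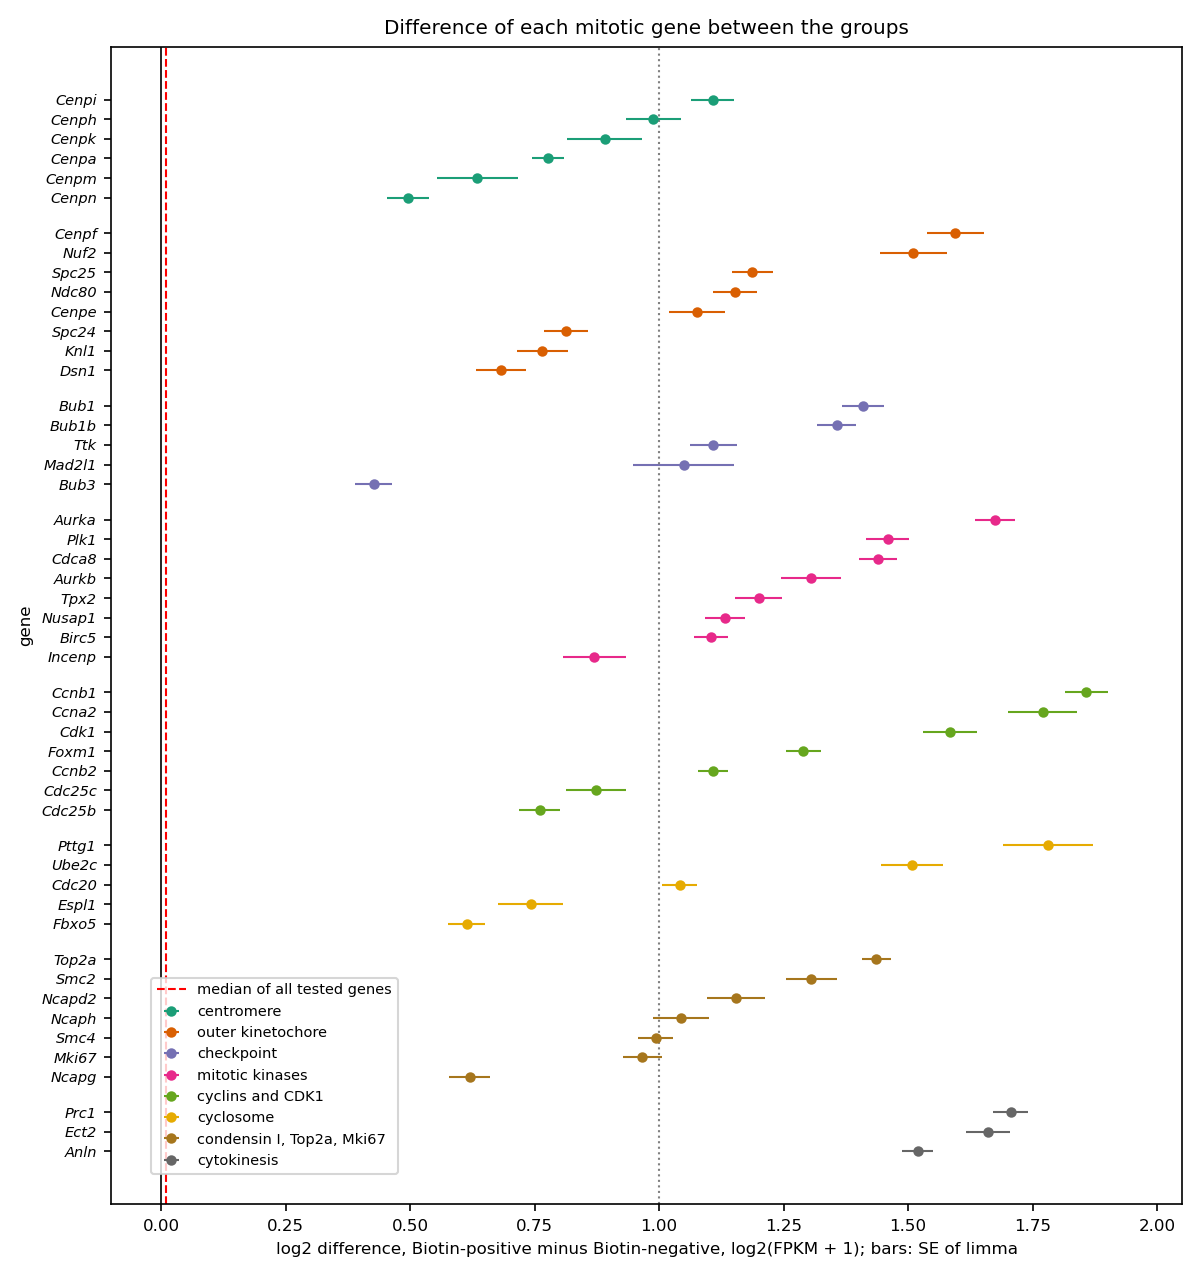
Log2 difference of each gene, Biotin-positive minus Biotin-negative, on the log2(FPKM + 1) scale, with the limma SE as bars, by class; the dotted line marks a difference of 1 and the dashed line the median of all tested genes, 0.01. All 49 genes lie to the right of 0, from 0.43 for Bub3 to 1.86 for Ccnb1, and each class except cytokinesis holds genes on both sides of 1.

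The mitotic kinases and their partners had a median log2 difference of 1.25, and 7 of 8 reached 1. Aurka, the Aurora kinase of centrosomes and spindle poles, was at 13.6, 12.5 and 12.7 FPKM and at 43.4, 43.6 and 43.3 FPKM (log2 difference 1.67, SE 0.0398). Plk1, the Polo kinase of mitotic entry, was at 14.8, 13.9 and 14.01 FPKM and at 42.4, 39.3 and 41.1 FPKM (log2 difference 1.46, SE 0.0433). Tpx2, which activates Aurora A on the spindle, rose from 24.9 ± 1.15 to 58.5 ± 2.61 FPKM (SD, n = 3 libraries). The ratios of means were 3.36 for Aurka and 2.35 for Tpx2, and the difference between them was not tested. Nusap1, a microtubule-bundling protein of the spindle, rose from 9.53 to 22.1 FPKM by group means.

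The chromosomal passenger complex corrects faulty attachments and consists of the kinase Aurora B and the proteins INCENP, survivin (Birc5) and borealin (Cdca8). Birc5 was the most abundant, with 41.0 ± 1.28 FPKM in the Biotin-negative and 89.2 ± 2.04 FPKM in the Biotin-positive group (SD, n = 3). Aurkb rose from 23.5 ± 1.93 to 59.5 ± 2.85 FPKM and Cdca8 from 16.0 ± 0.485 to 45.1 ± 1.04 FPKM. Incenp, the scaffold, had the smallest difference of the class, with 18.5, 17.5 and 16.7 FPKM and then 31.6, 31.1 and 36.3 FPKM (log2 difference 0.87, SE 0.0639). The 4 log2 differences were 1.10, 1.30, 1.44 and 0.87 in the order named. The ratio of Aurkb to Incenp went from 1.34 ± 0.0434 to 1.81 ± 0.194 without overlap between the groups.

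CDK1 and the mitotic cyclins form the engine of mitotic entry. Cdk1 was at 6.97, 6.31 and 7.02 FPKM in the Biotin-negative and 21.9, 23.3 and 21.6 FPKM in the Biotin-positive libraries, a 3.29-fold ratio (log2 difference 1.58, SE 0.0538). Ccnb1, cyclin B1, was at 19.0, 20.2 and 20.7 FPKM and at 78.2, 74.6 and 72.4 FPKM (log2 difference 1.86, SE 0.0434, limma adjusted p = 6.98e-09), the largest log2 difference of the 49. Its level is uncertain, since 51.9% of its transcript recurs at 98% identity or more in Gm12856 and in the pseudogene Ccnb1-ps. Ccna2, cyclin A2, was at 20.9, 22.8 and 18.2 FPKM and at 73.6, 71.9 and 72.3 FPKM (log2 difference 1.77, SE 0.0691), with the wider spread in the Biotin-negative group. Ccna2 shares 863 bases of its interval with Exosc9, which stood at 10.4 and 21.8 FPKM in the 2 groups, and the strand setting of the counting is not given in the sources used here. Ccnb2, cyclin B2, rose less than Ccnb1, from 24.9 ± 0.307 to 54.9 ± 0.580 FPKM. By the listed FPKM, Ccnb2 was the higher of the B cyclins in the Biotin-negative libraries and Ccnb1 in the Biotin-positive ones. The ratio of Ccnb1 to Ccnb2 went from 0.802 ± 0.0412 to 1.37 ± 0.0636. This order, and the ratio of Ccnb1 to Cdk1 below, rest on the uncertain level of Ccnb1. The ratios to Cdk1 overlapped between the groups, at 2.96 ± 0.237 and 3.37 ± 0.182 for Ccnb1 and at 3.07 ± 0.512 and 3.26 ± 0.151 for Ccna2.

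The CDC25 phosphatases remove the inhibitory phosphates of CDK1. Cdc25b had the smallest difference of this class, with 26.2, 24.7 and 24.1 FPKM and then 44.3, 42.8 and 42.1 FPKM (log2 difference 0.76, SE 0.0413). Cdc25c was much lower, at 4.90 ± 0.167 and 9.81 ± 0.670 FPKM. Foxm1, the transcription factor that works with MuvB on these promoters, rose from 18.4 ± 0.533 to 46.3 ± 0.728 FPKM (log2 difference 1.29).

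**Figure D4:**
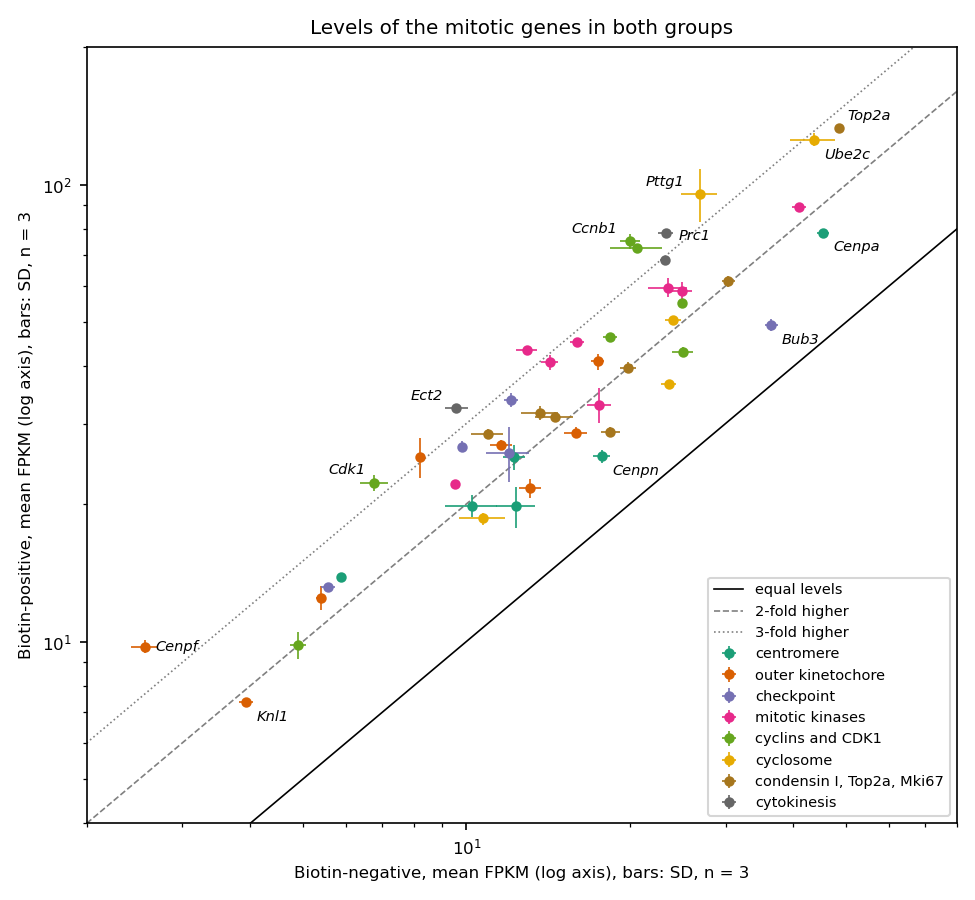
Mean FPKM of each of the 49 genes in the Biotin-negative (horizontal) and Biotin-positive (vertical) group, both on log axes, with SD bars over 3 libraries; lines mark equal levels, 2-fold and 3-fold. All points lie above the line of equal levels, from Bub3 at 1.35-fold to Cenpf at 3.81-fold, with Cenpf at the lower left and Top2a at the upper right.

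Level and change were set against each other next. Across the 49 genes the Spearman correlation of the Biotin-negative level with the log2 difference was -0.04, a description over genes that share the same 6 libraries. The genes ranged from 2.56 FPKM (Cenpf) to 48.5 FPKM (Top2a) in the Biotin-negative group.

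The 5 cyclosome genes rose by 0.61 to 1.78 on the log2 scale. Pttg1, securin, the inhibitor of separase that the cyclosome destroys at anaphase, was at 29.0, 26.9 and 24.9 FPKM and at 109, 84.5 and 92.4 FPKM (log2 difference 1.78, SE 0.0901). Ube2c, the ubiquitin-conjugating enzyme of the cyclosome, was at 48.0, 39.8 and 42.8 FPKM and at 130.0, 122 and 123 FPKM (log2 difference 1.51, SE 0.0624). For both, the first Biotin-positive library was the highest and the groups were far apart. Cdc20, the activator of the cyclosome in mitosis, rose from 24.0 ± 0.791 to 50.4 ± 0.395 FPKM. Espl1, separase itself, rose from 10.7 ± 1.06 to 18.6 ± 0.559 FPKM. Fbxo5, the cyclosome inhibitor EMI1, had the smallest difference, with 24.3, 23.7 and 22.7 FPKM and then 37.3, 36.0 and 36.5 FPKM (log2 difference 0.61, SE 0.0371). The ratio of securin to separase transcripts went from 2.51 ± 0.178 to 5.12 ± 0.517 within a library, without overlap.

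Condensin I folds mitotic chromosomes with a pair of SMC ATPases and the subunits NCAPD2, NCAPG and NCAPH. Smc2 was at 10.5, 11.8 and 10.5 FPKM and at 29.0, 28.7 and 27.8 FPKM. Smc4 was at 30.8, 30.9 and 29.4 FPKM and at 63.2, 60.2 and 60.8 FPKM. Smc4 was the higher of the pair throughout, and the ratio of Smc4 to Smc2 went from 2.78 ± 0.155 to 2.16 ± 0.0504. Ncapd2 was at 14.8, 12.6 and 13.7 FPKM and at 32.9, 30.6 and 31.4 FPKM. Ncaph was at 15.7, 14.6 and 13.4 FPKM and at 31.0, 31.7 and 30.2 FPKM. Ncapg was at 18.6, 19.1 and 17.6 FPKM and at 29.3, 29.0 and 28.1 FPKM. None of the 5 had overlapping groups. Every Biotin-positive library was above every Biotin-negative one for 39.1% of all tested genes. The log2 differences of the 5 were 1.31, 0.99, 1.15, 1.04 and 0.62 in the order named. Ncapg, the smallest, shares 3366 bases of its interval with Lcorl, which stood at 12.9 and 8.24 FPKM. Top2a, the topoisomerase that untangles sister chromatids, was the most abundant of the 49 genes, at 49.3, 48.6 and 47.7 FPKM and at 132, 136 and 131 FPKM (log2 difference 1.44, SE 0.0292). Mki67, the Ki-67 coat protein of mitotic chromosomes that is used as a proliferation marker, rose from 19.9 ± 0.672 to 39.8 ± 1.04 FPKM.

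The 3 cytokinesis genes had the highest class median, 1.66. Prc1, which bundles the midzone microtubules, was at 23.2, 22.6 and 24.0 FPKM and at 79.2, 78.6 and 76.7 FPKM (log2 difference 1.71, SE 0.0345, limma adjusted p = 3.47e-09). It shares 21810 bases of its interval with Rccd1, which stood at 4.02 and 3.93 FPKM. Ect2, the exchange factor that switches on RhoA at the division plane, rose from 9.59 ± 0.467 to 32.4 ± 0.469 FPKM. Anln, the ring scaffold anillin, was at 22.7, 23.4 and 23.6 FPKM and at 68.8, 68.8 and 67.6 FPKM (log2 difference 1.52, SE 0.0313).

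The other genes of the same machinery, 122 in 10 lists by function, were less uniform. Of 121 tested, 98 rose, 11 fell and 12 did not pass, with a median log2 difference of 0.50, beside 37.8% and 36.1% of all tested genes that rose and fell. Of 25 tested further kinetochore genes 23 rose, Cenpo (4.64 and 4.90 FPKM) did not pass, and Hjurp fell; Cenps was under 1 FPKM in at least 4 libraries and was not tested. Ska2, of the complex that tracks microtubules, rose most, from 3.35 ± 0.487 to 11.5 ± 1.91 FPKM. Hjurp, the chaperone that deposits CENP-A, fell from 64.4 ± 1.97 to 50.9 ± 1.74 FPKM (log2 difference -0.33, limma adjusted p = 5.20e-05), a fall in each alternative run. The ratio of Cenpa to Hjurp went from 0.705 ± 0.0256 to 1.54 ± 0.0609. Mis18a and Oip5, which prepare centromeres for the same deposition, were higher, Mis18a with group means of 5.13 and 14.8 FPKM and Oip5 with 4.76 and 15.0 FPKM.

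All 6 further genes of the checkpoint, its silencing and centromere protection rose, led by the shugoshin Sgo2a (3.67 ± 0.103 to 13.2 ± 0.167 FPKM). Spindle genes rose in 20 of 20, led by Hmmr (6.68 ± 0.277 to 23.2 ± 1.66 FPKM), with a median of 0.75. The counts in this paragraph stand beside 37.8% of all tested genes that rose and 36.1% that fell. The 3 condensin II genes rose as well, from 0.54 to 0.90, with Ncapg2 the most (13.1 ± 0.829 to 25.1 ± 0.484 FPKM). Among 12 further cytokinesis genes there were 9 rises and 2 falls, and Septin9 (24.3 and 25.8 FPKM) did not pass. The falls were 1 with the replicate block and when any 1 library other than Biotin-positive replicate 1 was left out. Cep55, an abscission protein, rose from 6.64 ± 0.588 to 26.7 ± 1.15 FPKM (log2 difference 1.86), and Vps4a, an ATPase of the ESCRT machinery, fell from 39.2 ± 0.588 to 27.1 ± 1.10 FPKM.

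Core subunits of the cyclosome had a median log2 difference of 0.31. Of the 14, 11 were called higher, 1 lower (2 after quantile normalization) and 2 neither way. Of all tested genes 37.8% rose and 36.1% fell. The higher calls were 9 with libraries scaled to an equal sum and 8 with no filter on low values. They were also 8 when Biotin-negative replicate 2 or 3 or Biotin-positive replicate 2 or 3 was left out. Anapc15 rose most, from 9.70 ± 0.609 to 20.9 ± 1.95 FPKM, Anapc16 fell from 21.9 ± 0.0928 to 19.0 ± 0.697 FPKM, and Anapc5 (106 and 109 FPKM) did not pass. The ratio of Ube2c to Anapc5 went from 0.411 ± 0.0287 to 1.15 ± 0.0246. Among 4 further partners the E2 enzyme and cyclin genes Ube2s and Ccnf rose, Ccnf from 3.15 ± 0.372 to 11.7 ± 0.828 FPKM, Fzr1 rose, and Ube2d1 did not pass.

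Cohesin is the ring that holds sister chromatids together. Of its 13 genes 8 rose and 5 fell, with a median of 0.12, beside the 37.8% and 36.1% of all tested genes that rose and fell. With libraries scaled to an equal sum 5 of the 13 rose, beside 3688 of all 11029 tested genes, and 3 fell without Biotin-negative replicate 1, Biotin-positive replicate 1 or Biotin-positive replicate 3. Esco2, the acetyltransferase that locks cohesin during replication, rose from 6.91 ± 0.516 to 13.97 ± 0.0543 FPKM, and Mau2, of the loader, fell from 26.5 ± 1.10 to 16.2 ± 0.336 FPKM. The 15 genes of mitotic entry and exit gave 10 rises and 1 fall, and 4 did not pass. Cks2, a CDK subunit, rose from 30.3 ± 2.38 to 88.6 ± 6.79 FPKM, and the phosphatase catalytic gene Ppp1cb fell from 58.6 ± 8.05 to 38.8 ± 0.446 FPKM. The genes of the MuvB complex and NF-Y, whose proteins bind the CHR and CCAAT letters shown above, had 5 rises, 1 fall and 3 that did not pass of 9. The rises were 4 with no filter on low values and with libraries scaled to an equal sum, and 7 after quantile normalization. They were also 4 without Biotin-negative replicate 3 or Biotin-positive replicate 1. Lin54, the DNA-binding subunit of MuvB, rose from 7.32 ± 0.819 to 15.4 ± 0.290 FPKM, Mybl2 from 11.4 to 22.4 FPKM by group means, and Nfyc fell from 29.8 ± 3.02 to 20.9 ± 0.591 FPKM, while Lin37, Lin52 and Rbbp4 did not pass.

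**Figure D5:**
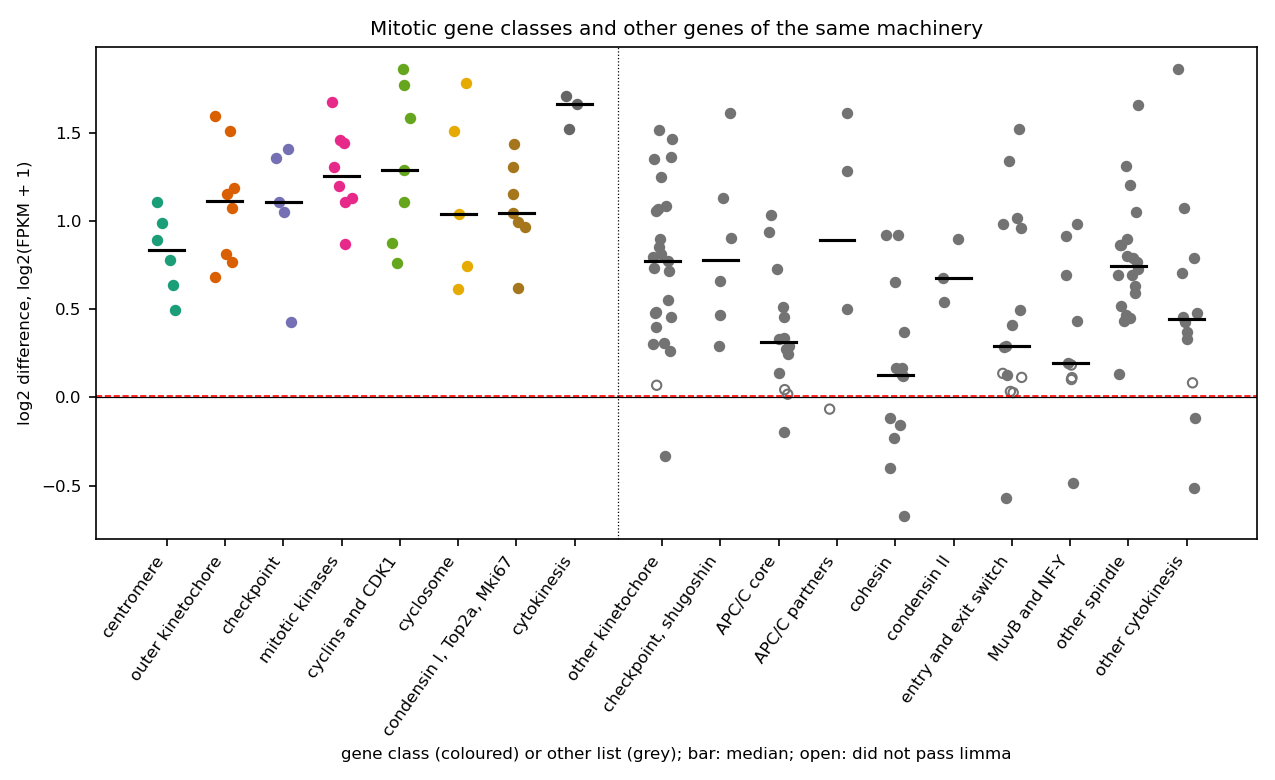
Log2 difference, Biotin-positive minus Biotin-negative, on the log2(FPKM + 1) scale, for the tested genes of the 8 classes (coloured) and of 10 other lists of mitotic machinery (grey); bars are medians, open points did not pass limma, and the dashed line is the median of all tested genes. The class medians run from 0.83 to 1.66, and the medians of the other lists from 0.12 for cohesin to 0.89 for the cyclosome partners.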

How the data were processed

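RNA of 6 L929 libraries was measured by RNA-seq. Per the submitters' processing notes, cutadapt 1.9.1, HISAT2 2.2.1 and HTSeq 0.6.1 were used with the build GRCm39. The deposited values are FPKM, 1 column per library; the FPKM program, annotation release and strand setting are not given in the sources used here. FPKM is no count and depth is unknown, so no interval that needs it is given.

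A gene entered the tests when 3 or more of the 6 libraries had 1 FPKM or more (11029 genes). On the log2(FPKM + 1) scale the groups were fitted in limma 3.58.1 under R 4.3.3 (eBayes with a trend, two-sided) without a replicate block, with Benjamini-Hochberg adjustment over all of them at 0.05; the procedure was tested on simulated data. Groups came from the labels. Members and lists were chosen with earlier results of these data known. Named are, per class, the 2 members with the largest difference and the 1 with the smallest (cytokinesis: 1 and 1), the NDC80 and condensin I subunits, and per other list the largest passing rise and fall; further genes and all ratios were named after their values were seen. Near-identical transcripts (at least 100 bases at 98% identity) were searched with blastn 2.17.0 in GENCODE vM21 sequences. The intervals of 12 of the 49 genes overlap another gene, and not all of these overlaps are named above. Alternatives were other pseudocounts, filters, scalings, eBayes settings, a replicate block and leaving out each library. Tables used Python 3.11.15 and pandas 2.3.3, figures matplotlib 3.10.9.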

Additional observations from a re-analysis of the deposited data

How the results depend on the processing

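Over 16 alternatives all 49 genes stayed higher and past the limma threshold, and 0 were lower, with 49 genes tested in each. The largest adjusted p-value of any of them under an alternative was 0.00105, for Cenpm with no filter on low values. The count with a log2 difference of at least 1 ranged from 29 with libraries scaled to an equal sum to 34 with pseudocounts of 0.1 and 0.5, and from 31 to 33 when 1 library was left out. The median log2 difference of the members, 1.11, was judged by the pooled SD between replicates of the members' median level per library. It moved by more than that SD in 4 alternatives. These gave 1.21 with a pseudocount of 0.1, 1.17 with a pseudocount of 0.5 and 1.05 with an equal sum per library. The last gave 1.15, without Biotin-positive replicate 2. Leaving out each library gave medians from 1.10 to 1.15 (the latter without Biotin-positive replicate 2). With the replicate block 49 genes were higher, 32 of them by at least 1, and the median was 1.11; equal replicate numbers did not deviate together (correlations of 0.04, 0.01 and 0.01 for numbers 1, 2 and 3), so the block is an alternative and no pairing. FPKM carries no depth, so the precision of low genes such as Cenpf rests on 3 libraries per group.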

Other observations

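Among tested genes outside the 49 that have a promoter window, 515 held both the CHR letters TTTGAA and CCAAT, and 47.8% of them rose at an adjusted p of 0.05 in limma, with a median log2 difference of 0.12. Of the 8252 without both motifs 37.4% rose, with a median of 0.01. Only the 49 were taken out, so other genes of the mitotic machinery can be among the 515. These shares are descriptions over genes and were not tested.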
